A study of Mus musculus with 6 samples.

Results

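The genes described here were 8 adrenoreceptors, Adra1a, Adra1b, Adra1d, Adra2a, Adra2b, Adra2c, Adrb1 and Adrb3, chosen by name from the 32285 genes of the count tables and followed across cell classes of the mouse amygdala. The classes were set by marker counts over all 13546 barcodes, with no use of the hashtag calls that assign cells to mice. A barcode was taken as an astrocyte when its Slc1a2 and Slc1a3 transcripts summed to at least 20 and its Vtn and Rgs5 transcripts to at most 3, which gave 8757 cells. Pericytes, the contractile cells that wrap capillaries, had at least 10 Vtn and Rgs5 transcripts, at most 5 Slc1a2 and Slc1a3 transcripts and fewer than 5 Acta2 transcripts, which gave 2240 cells. Cells with at least 5 transcripts of Acta2, the smooth muscle actin of arteriolar mural cells, numbered 22 and are called Acta2 cells. Within astrocytes, cells with at least 3 transcripts of Agt, which encodes angiotensinogen and differs between regional types of astrocytes, numbered 3236, and 2813 had 0.

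The cells came from the amygdala of wild-type male C57BL/6N mice, young adults, dissected 90 min after a behavioural session began. The 4 behavioural groups were mice placed in the chamber without shock (NoFC), mice given foot shocks there (FC), conditioned mice left in the home cage on the following day (NoFR) and conditioned mice returned to the chamber for fear recall (FR), with 4 mice in each. The 90 min is stated for all groups. NoFR mice had no session on that following day, and the paper describes them as a day past conditioning without recall. Brain tissue was dissociated in the presence of actinomycin D, triptolide and anisomycin, which block transcription and translation, and cells were stained for CD11b, CD45, O1 and the astrocyte antigen ACSA-2 before sorting and droplet sequencing. Mice were pooled in 3 libraries, of 8, 4 and 4 mice, and library 2 held no NoFR mouse and library 3 no FC mouse. Behavioural groups were therefore pooled within each library and not compared, and the replicate was the library (n = 3). Cells of a library are not replicates of one another, an exact sign test over 3 libraries cannot go below p = 0.25 (two-sided), and the tests below are fits across all genes to the transcripts summed per class and library.

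Noradrenaline and adrenaline act on cells through these receptors, which fall into 3 families of G protein-coupled receptors. The α1 receptors (Adra1a, Adra1b and Adra1d) couple to Gq and raise intracellular calcium, the α2 receptors (Adra2a, Adra2b and Adra2c) couple to Gi and Go and lower cyclic AMP, and the β receptors (Adrb1 and Adrb3) couple to Gs and raise it. In the brain, noradrenaline is released by fibres of the locus coeruleus, and α1 receptors are known as a main route by which it raises astrocyte calcium. In vessel walls, α1 and α2 receptors of mural cells are known for constriction.

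The libraries held between 3631 and 5287 barcodes and between 31700569 and 42350059 unique molecular identifiers (UMIs, one per captured transcript). Astrocytes had a median of 9891 UMIs, pericytes 4999.5 and Acta2 cells 6706.5, so levels are given as CPM, the UMIs of a gene per 1000000 UMIs of a class, with no scaling by transcript length, and shares of cells are also given at 1 fixed depth. The class labels were checked on markers that the rule did not use. The 6 further astrocyte markers summed to between 5073 and 5105 CPM in astrocytes, and between 702 and 759 CPM in pericytes, where Atp1b2 made up most. The 5 pericyte markers other than Vtn and Rgs5 were all found in pericytes, at 4900 to 5144 CPM, and stood at 3.94 to 5.61 CPM in astrocytes. Pericytes also held 1957 to 2022 CPM of the smooth muscle list, 227 to 260 CPM of the fibroblast list and 135 to 145 CPM of the endothelial list. Of the sort antigen's own gene, Atp1b2, pericytes held 82.8% ± 3.49 (SD, n = 3) of the astrocyte CPM, whereas Aqp4, Gja1, Aldh1l1 and Aldoc stood at 0.932% to 1.24% of it and Gfap was at 0 in pericytes. Acta2 cells held 5080 to 7846 CPM of the 5 smooth muscle markers other than Acta2, of which Cnn1 was at 0, and 727 to 2603 CPM of the 5 pericyte markers. Between 3 and 8 barcodes were shared by any pair of libraries.

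Over all barcodes, Adra1a was the most abundant adrenoreceptor transcript with 6326 UMIs, followed by Adrb1 with 2137, Adra1b with 724 and Adra2a with 438. Adra2c had 15 UMIs and Adra2b 10, and Adra1d and Adrb3 had 0. Droplet libraries count transcript ends, so UMIs were not divided by gene length, and any order of receptors given here is one of captured UMIs. A count of 0 allows a share of up to 0.0343% of astrocytes and 0.134% of pericytes with a UMI of Adra1d or Adrb3. Those limits cover counting error only, as do the other limits for a count of 0 and the intervals of CPM and of ratios of CPM. Intervals of fitted fold changes come from the fits to the sums per class and library. Adra1a, at chr14:66635251-66771168 on the forward strand of GRCm38, and Adra1b, at chr11:43774606-43901210 on the reverse strand, are long genes of 135.918 and 126.605 kb. Adra2a, at chr19:54044151-54048982, spans 4.832 kb, and Adrb1, at chr19:56722199-56733113, spans 10.915 kb, both on the forward strand. The counts are of the whole gene, and exonic and intronic reads are not separated in them. The sources used here do not say whether intronic reads were counted, which would raise long genes such as Adra1a and Adra1b against the shorter Adrb1 and Adra2a, so the order between receptors may depend on it.

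In astrocytes, Adra1a stood at 58.9, 62.9 and 69.9 CPM in libraries 1, 2 and 3, and Adrb1 at 22.5, 21.7 and 23.8 CPM. Adra1b stood at 6.72, 6.45 and 7.77 CPM and Adra2a at 2.91, 3.98 and 3.74 CPM. The order Adra1a, Adrb1, Adra1b, Adra2a held in every library, and no range of one gene over the libraries met that of its neighbour. Means were 63.9 ± 5.53, 22.7 ± 1.05, 6.98 ± 0.70 and 3.54 ± 0.56 CPM (SD, n = 3). Adra2c had 10 UMIs in 8 astrocytes and Adra2b 1 UMI, of 91428808 UMIs in the class.

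Pericytes carried the same receptors in another order. Adra1a was again first, at 22.3, 27.6 and 22.3 CPM in libraries 1, 2 and 3 (24.1 ± 3.08, SD, n = 3). Adra2a came next, at 8.51, 7.98 and 11.1 CPM (9.21 ± 1.70), ahead of Adra1b at 4.37, 5.41 and 6.52 CPM (5.43 ± 1.08). The ranges of these 3 genes did not meet. Adrb1, the second receptor of astrocytes, had 2 UMIs in all pericytes, 1 in library 2 and 1 in library 3. Adra2b had 9 UMIs in 8 pericytes, and Adra2c 3 UMIs in 1 pericyte.

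**Figure D1:**
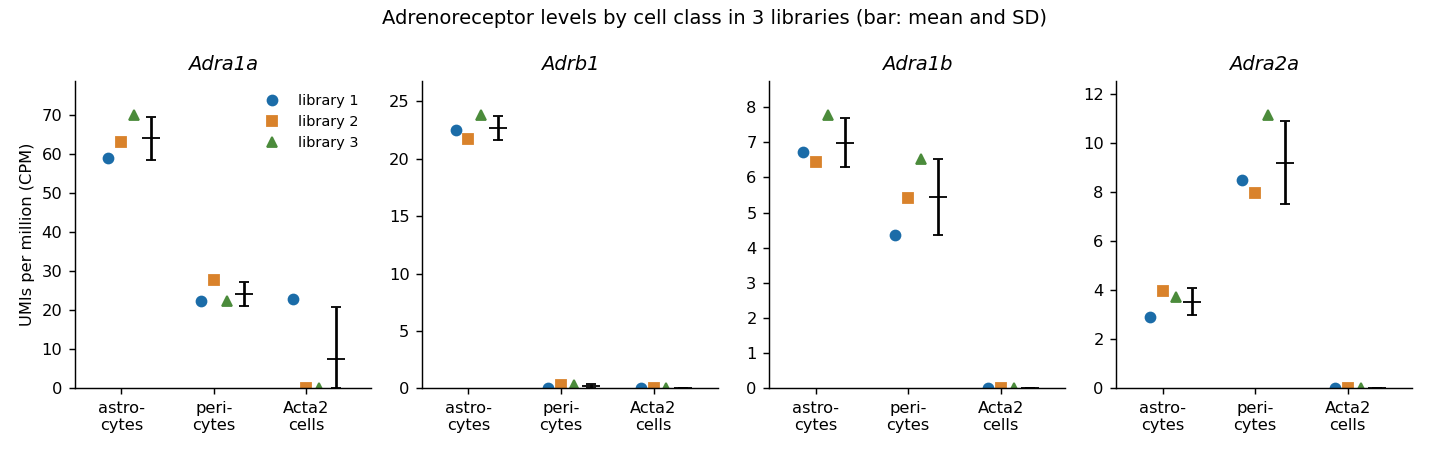
Levels of Adra1a, Adrb1, Adra1b and Adra2a in astrocytes, pericytes and Acta2 cells, in CPM (linear axes from 0, a scale for each gene), with a symbol for each of the 3 libraries and the mean and SD beside them, the SD bar stopping at 0. Adra1a and Adrb1 sat higher in astrocytes than in pericytes in every library, Adra2a sat lower, and the 2 classes' symbols for Adra1b overlapped (6.45 CPM at lowest in astrocytes and 6.52 at highest in pericytes).

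The comparison of astrocytes with pericytes asked which receptors separate the 2 main classes of the sort. Adrb1, the β1 receptor, and Adra1a, the α1A receptor, were higher in astrocytes, and Adra2a, the α2A receptor, was higher in pericytes. The classes were compared with library as a block by edgeR's quasi-likelihood test, adjusted by Benjamini-Hochberg over 15349 genes, of which 12202 (79.5%) passed an adjusted p of 0.05, 42.8% higher in astrocytes and 36.7% lower. With scaling to total UMIs the split turned, to 5552 genes higher and 6710 lower. The 4 receptors abundant enough to be tested all passed, 3 higher and 1 lower. With nearly 4 in 5 genes called, that count says little about the receptors, and the sizes and directions carry the comparison. Fold changes are relative to the scaling of the fit (TMM), under which the median gene had a log2 difference of 0.105, against -0.106 with scaling to total UMIs only.

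For Adrb1, 2072 UMIs in 1647 astrocytes stood against 2 UMIs in pericytes, a ratio of CPM of 131 with a counting interval of 36.1 to 1080. The fitted log2 difference was 7.17 (SE 0.32, edgeR adjusted p = 6.32e-17), and Adrb1 was higher in astrocytes in 3 of 3 libraries. The interval from that SE, 93.0 to 225-fold, was narrower than the counting interval, so it understates the error from 2 pericyte UMIs. Adra1a was 3.08-fold higher in astrocytes (95% interval 2.73 to 3.47, log2 1.62, SE 0.088, edgeR adjusted p = 3.3e-15), again in 3 of 3 libraries and with the ranges apart. Adra2a was 0.442-fold of its pericyte level in astrocytes (0.332 to 0.589, log2 -1.18, SE 0.21, edgeR adjusted p = 1.66e-05), lower in 3 of 3 libraries. In CPM, without the scaling of the fit, its level in pericytes was 264% ± 54.9 of that in astrocytes (mean and SD of the ratios per library). Adra2a was the only 1 of the 4 tested receptors that was higher in pericytes.

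Adra1b, the α1B receptor, was close in the 2 classes. It was higher in astrocytes in 3 of 3 libraries, by 1.5-fold in the fit (1.14 to 1.97, log2 0.58, SE 0.20, edgeR adjusted p = 0.00971). The ratio of pooled CPM was 1.29, with a counting interval of 0.996 to 1.71 that includes equality. The call was lost with DESeq2 (adjusted p = 0.0986), without library 1 (edgeR adjusted p = 0.0896), with scaling to total UMIs (edgeR adjusted p = 0.0911), against pericytes with 0 Slc1a2 and Slc1a3 UMIs (edgeR adjusted p = 0.207) and against 152 pericytes with 0 UMIs of the further astrocyte markers (edgeR adjusted p = 0.784). The lowest adjusted p of its alternatives was 0.00296. Adra2b, an α2 receptor known from vascular muscle, was too scarce for the fit. Its 9 UMIs in pericytes against 1 in astrocytes gave a ratio of CPM of 71.3, with a counting interval of 9.88 to 3126. Of the 9, 6 were in library 3, and without that library the ratio was 24.3 (1.95 to 1275). Adra2b passed when the filter on low counts was dropped (edgeR adjusted p = 0.00133).

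**Figure D2:**
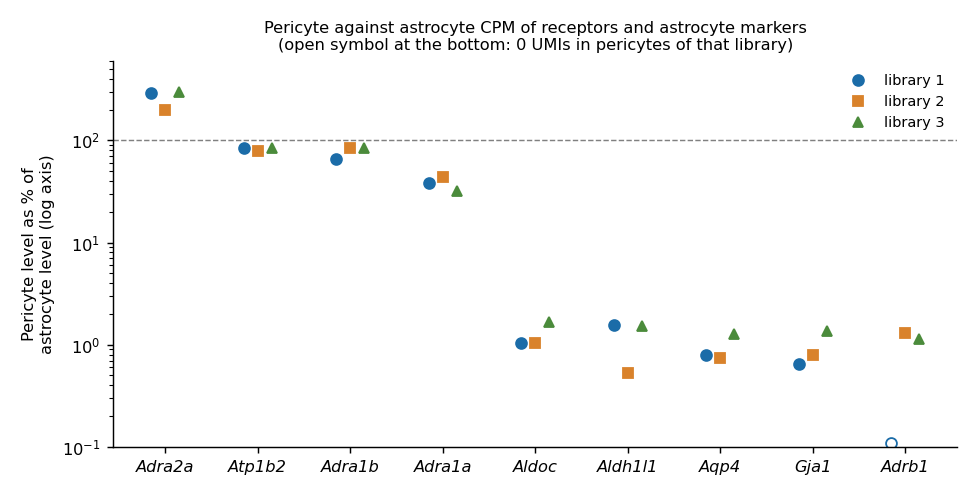
The pericyte CPM as a percentage of the astrocyte CPM (log axis, dashed line at 100%) for the 4 receptors and for astrocyte markers, 1 symbol for each library, an open symbol at the base of the axis standing for 0 UMIs. Adra2a lay above 100% in all 3 libraries, Adra1a lay between 31.9% and 43.9%, and Adrb1 lay with Aqp4, Gja1, Aldh1l1 and Aldoc near 1%.

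Because pericyte barcodes can hold RNA of other cells, the receptor counts were set beside astrocyte RNA in the same barcodes. In astrocytes there were 0.356 ± 0.022 Adrb1 UMIs for each Adra1a UMI (SD, n = 3), and in pericytes 0.0075 ± 0.0066. At the astrocyte ratio, the 276 Adra1a UMIs of pericytes would have come with 98.6 Adrb1 UMIs, where 2 were found. They would likewise have come with 15.1 Adra2a UMIs, where 106 were found, and with 30.3 Adra1b UMIs, where 62 were found. Pericytes with Adra1a (171 cells) held 35.0 ± 8.17 CPM of 5 astrocyte markers other than Atp1b2, and those without it (2069 cells) 46.8 ± 15.8 CPM. The 2 groups had the same median of 1 for Slc1a2 and Slc1a3 UMIs, and medians of 89 and 92 for Vtn and Rgs5 UMIs. The class rule bounds both of these sums, so their medians are a description and no check on the source of the UMIs. The endothelial list stood at 95.9 ± 11.1 CPM in pericytes with Adra1a and 144 ± 5.74 CPM in those without. The astrocyte ratio bears on RNA of astrocytes only, and the source of the receptor UMIs in pericytes was not tested.

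Stricter sets of pericytes gave similar levels. Among the 963 pericytes with 0 Slc1a2 and Slc1a3 UMIs, Adra1a stood at 22 CPM, Adra2a at 9.13 and Adra1b at 6.23. Among the 1401 with 0 endothelial UMIs the values were 26.6, 8.66 and 5.14 CPM, and among the 864 with 0 fibroblast UMIs 28.1, 7.78 and 4.52 CPM. The exception was the set of 152 pericytes with 0 UMIs of all 6 astrocyte markers that the class rule did not use, shallow cells with a median of 3719 UMIs, in which Adra1a stood at 58.1 CPM (39.7 to 82.0) from 32 UMIs in 13 cells. The 6 include Atp1b2, at 679 CPM in pericytes without Adra1a, where the other 5 summed to 46.8 CPM. That set was therefore picked mostly on the absence of Atp1b2 UMIs. Against that set the difference of Adra1a was 0.54 on the log2 scale and no longer passed (edgeR adjusted p = 0.103, the highest of its alternatives, the lowest being 1.61e-78). The sign for Adra2a turned (0.37, SE 1.20, edgeR adjusted p = 0.840), while Adrb1 still passed (edgeR adjusted p = 3.53e-05).

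The levels near the class limits were as follows. Astrocytes just inside the limit, with 20 to 39 Slc1a2 and Slc1a3 UMIs (732 cells), held 61.5 CPM of Adra1a and 13.3 of Adrb1, and the 919 barcodes just outside it, with 10 to 19, held 67.4 and 15.0 CPM. Pericytes just inside, with 10 to 19 Vtn and Rgs5 UMIs (57 cells), held 70.1 CPM of Adra1a (33.6 to 129) and 0 UMIs of Adra2a, and the 54 just outside, with 5 to 9, held 47.4 CPM of Adra1a (17.4 to 103). The Adra1a level of the pericytes with fewest marker UMIs, from 10 Adra1a UMIs, stood above the class mean of 24.1 CPM.

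The share of cells with a receptor UMI followed depth in astrocytes. Adra1a was found in 3117 astrocytes (35.6%) and in 171 pericytes (7.63%), Adrb1 in 18.8% and 0.0893%, Adra1b in 5.77% and 2.28%, and Adra2a in 3.38% and 4.11%. From astrocytes under 2000 UMIs to those of 20000 or more, the share with Adra1a ran from 6.41% to 57.6% and that with Adrb1 from 0.356% to 36.7%. In pericytes the share with Adra1a lay between 5.94% and 8.39% in each bin up to 10000 UMIs. That was not so for the other receptors. From 2000 to 4000 UMIs to 8000 to 10000, the pericyte share with Adra1b rose from 0.998% to 5.94%. The share with Adra2a rose from 2.99% to 6.08% at 6000 to 8000 and was 1.98% at 8000 to 10000. The limit of 5 Slc1a2 and Slc1a3 UMIs holds at any depth, so deep pericytes were selected more strictly. For reading these shares, no class here is known to lack the receptors, and free RNA adds UMIs to all classes at a rate not measured here.

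When each cell was thinned to 4000 UMIs, with shallower cells left out (8.37% of astrocytes and 24.5% of pericytes), the share of cells with Adra1a was 18.8% ± 1.39 for astrocytes and 6.91% ± 1.03 for pericytes (SD, n = 3). Adrb1 was found in 8.35% ± 0.79 and 0.126% ± 0.109, and Adra1b in 2.80% ± 0.10 and 1.81% ± 0.62. For Adra2a the share was 1.55% ± 0.38 in astrocytes and 3.11% ± 1.19 in pericytes. Directions at this depth were those of the levels for all 4 genes. At 8000 UMIs, which left 128 pericytes, the share of Adra1b turned and was 0.792 times the pericyte share in astrocytes.

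**Figure D3:**
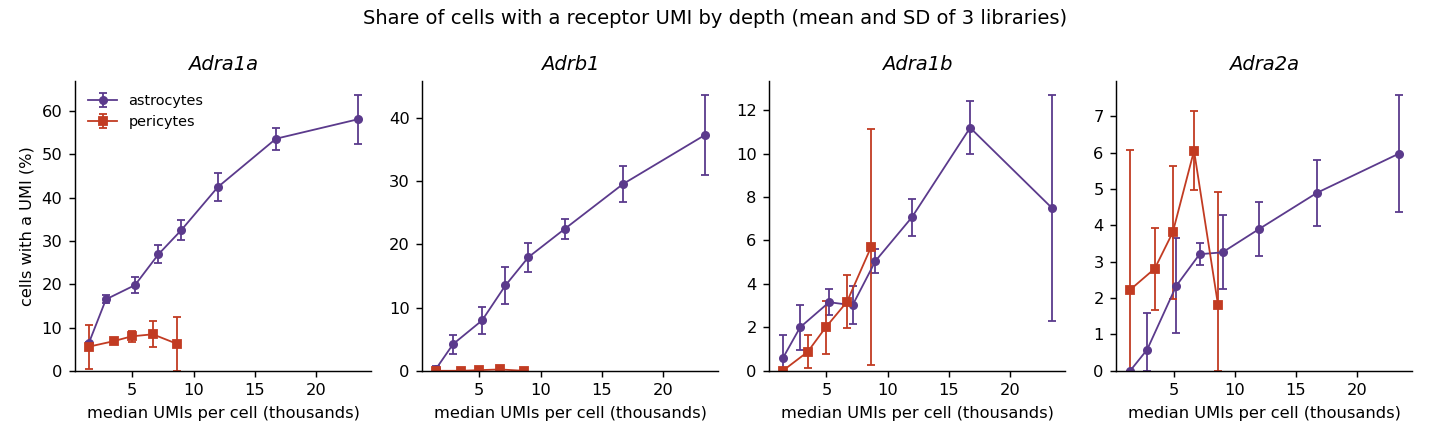
Share of astrocytes and of pericytes with at least 1 UMI of a receptor (percent, linear axes from 0) against the median UMIs per cell of each depth bin (in units of 1000 UMIs), for bins of at least 40 cells, with points for the mean of 3 libraries and bars for the SD, stopping at 0. At matched depth the astrocyte line for Adra1a and Adrb1 ran above the pericyte line from 2000 UMIs upward, and the Adra2a pericyte line ran above the astrocyte line up to 8000 UMIs.

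The UMIs of Adra1a were less evenly spread over cells than depth alone would give. If they had fallen on astrocytes in proportion to depth, 45.9% would have held at least 1, where 35.6% did. The 3.51% of astrocytes with 4 or more Adra1a UMIs held 27.5% of them. For Adrb1 the share found was 18.8% and the share by depth alone 20.6%, for Adra1b 5.77% and 6.95%, and for Adra2a 3.38% and 3.55%. In pericytes Adra1a was found in 7.63% of cells where depth alone would give 11.5%, and 68 cells with at least 2 UMIs held 62.7% of the pericyte UMIs. Counting all 8 receptors, 49.5% of astrocytes had none detected at their depth, 38.5% had 1, 10.8% had 2 and 1.19% had 3, and 86.1% of pericytes had none detected.

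Acta2 cells gave little receptor signal, at a depth of 203502 UMIs in the whole class. Adra1a had 2 UMIs, both in 1 cell of library 1 (9.83 CPM over the class, counting interval 1.19 to 35.5), and the other 7 genes had 0, which allows up to 14.7 CPM each. A count of 0 in 22 cells allows up to 13.6% of cells with a UMI, which is no limit on cells that express a receptor, since a receptor at the astrocyte level of Adra1b or Adra2a would be missed in most cells at this depth. The cell with Adra1a had 18066 UMIs, of which 277 were Slc1a2 and Slc1a3, 86 were Vtn and Rgs5 and 6 were Acta2, so it also held astrocyte transcripts. It was the only 1 of the 22 cells with 20 or more Slc1a2 and Slc1a3 UMIs, and the other 21 cells, each with at most 5, had 0 Adra1a UMIs.

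Against Acta2 cells, Adra1a was higher in astrocytes (log2 3.02 in the fit, SE 0.82, edgeR adjusted p = 0.00213) and Adrb1 also passed (edgeR adjusted p = 0.0405), among 14255 genes of which 18% passed, 10.4% higher in astrocytes and 7.52% lower. The ratio of pooled CPM for Adra1a was 6.45 (counting interval 1.79 to 53.3). Adrb1 was 1.54-fold higher in astrocytes when the Acta2 class is set at a limit of 3 UMIs. The exact counting interval of the Adrb1 ratio began at 1.25. The fitted size for Adra1a rested on the 2 UMIs of 1 cell, and was 2.32 on the log2 scale without library 3 and 12.9 without library 1, where no Adra1a UMI was left in Acta2 cells and the value is no bound. Both calls depended on the few Acta2 cells. That of Adra1a was lost without library 2 (edgeR adjusted p = 0.203) or library 3 (edgeR adjusted p = 0.149), and the lowest value of its alternatives came without the cell that held astrocyte transcripts (edgeR adjusted p = 1.11e-05). That of Adrb1 was lost without any 1 of libraries 1, 2 and 3 (edgeR adjusted p = 0.246, 0.247 and 0.348), with DESeq2 (adjusted p = 0.0565), with scaling to total UMIs (edgeR adjusted p = 0.0818) and at 4000 UMIs per cell (edgeR adjusted p = 0.155), with a lowest value of 0.0149. Adra1b and Adra2a in astrocytes did not reach the level that 0 UMIs in Acta2 cells allows.

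Between Acta2 cells and pericytes, 718 of 10430 genes passed (6.88%, 3.1% higher in Acta2 cells and 3.79% lower) and no receptor did. For Adra1a the log2 difference had an interval of -3.53 to 0.98 (edgeR adjusted p = 0.704), so a difference of either sign was not detectable at this depth. Of the 2 receptors tested, 0 passed an unadjusted edgeR p of 0.05. DESeq2 and the other alternatives called no receptor here, and the lowest edgeR adjusted p among them was 0.193, for Adra1a.

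The comparison of astrocytes with at least 3 Agt UMIs and astrocytes with 0 asked whether receptors differ between these subtypes. Adra2a was higher and Adra1b lower in the astrocytes with Agt, and the levels of Adra1a and Adrb1, the 2 abundant receptors, were close. Of 14162 genes tested, 3747 passed (26.5%, 12.7% higher and 13.8% lower), and of the 4 receptors tested 1 was higher, 1 lower and 2 did not pass. Astrocytes with 0 Agt UMIs were shallower (median 8936 UMIs against 10306.5), had more cells over 6% mitochondrial UMIs (16.6% against 0.896%), held less of the 6 further astrocyte markers (3938 to 4404 CPM against 5364 to 5586) and more of the neuron list (18.3 to 30.9 CPM against 7.66 to 8.13). The part of these differences in the receptor results was not tested beyond the filters given below.

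Adra2a stood at 1.99-fold in astrocytes with at least 3 Agt UMIs (1.44 to 2.73, log2 0.99, SE 0.24, edgeR adjusted p = 0.00193), with 4.69 ± 0.58 CPM against 2.42 ± 0.66 CPM (SD, n = 3). It was higher in 3 of 3 libraries and the ranges did not meet. Along the Agt count the mean level was 2.42 CPM at 0, 3.08 ± 0.53 at 1 or 2, 3.59 ± 0.92 at 3 to 5 and 5.79 ± 0.30 at 6 or more. At 4000 UMIs per cell the share of cells with Adra2a was 2.13% ± 0.49 against 0.723% ± 0.128. Thinning to this depth left out 1.36% of astrocytes with at least 3 Agt UMIs and 18.7% of those with 0, so the 2 sets were unequally selected. With DESeq2 the call was lost (adjusted p = 0.113), and this was the highest of its alternatives, the lowest being 7.15e-05. In barcodes that had 100 or more genes and a mitochondrial share below 6%, the difference was 1.02 on the log2 scale (edgeR adjusted p = 0.00165).

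Adra1b ran the other way, at 5.31 ± 0.09 CPM with at least 3 Agt UMIs and 7.53 ± 0.76 CPM with 0 (0.717-fold, 0.571 to 0.899, log2 -0.48, SE 0.17, edgeR adjusted p = 0.0321). It was lower in 3 of 3 libraries, with the ranges apart. The step lay among the cells with most Agt, since the mean was 8.60 ± 1.68 CPM at 1 or 2 UMIs, 7.08 ± 1.01 at 3 to 5 and 3.58 ± 0.75 at 6 or more. Taking at least 5 Agt UMIs as the limit gave a log2 difference of -0.997 (edgeR adjusted p = 0.000444). The call at 3 was lost with DESeq2 (adjusted p = 0.414), at 4000 UMIs per cell (edgeR adjusted p = 0.0770), without library 1 (edgeR adjusted p = 0.106) and without library 3 (edgeR adjusted p = 0.175). Among barcodes under the mitochondrial limit it was -0.45 (edgeR adjusted p = 0.0475).

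**Figure D4:**
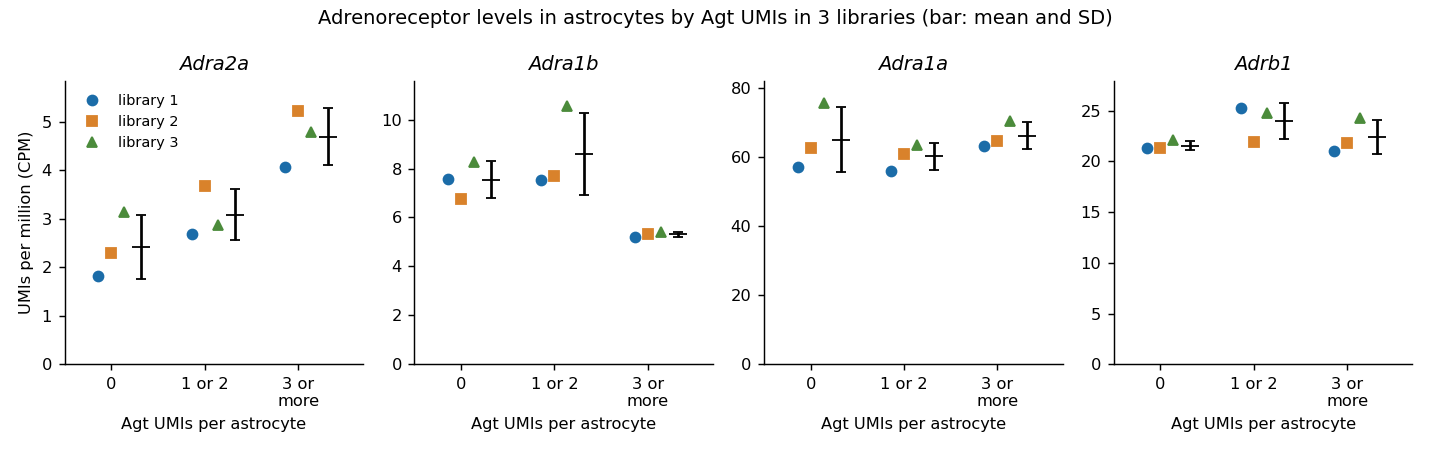
Levels of Adra2a, Adra1b, Adra1a and Adrb1 in astrocytes with 0, 1 or 2, and at least 3 Agt UMIs, in CPM (linear axes from 0, a scale for each gene), 1 symbol for each library with the mean and SD. From 0 to at least 3, Adra2a went from a mean of 2.42 to 4.69 CPM and Adra1b from 7.53 to 5.31 CPM. Between these end groups Adra1a (65.0 and 66.1 CPM) and Adrb1 (21.6 and 22.4 CPM) stayed within the spread of the libraries. At 1 or 2, Adra1a stood at 60.2 CPM, lower than at 0 in each library. Adrb1 stood at 24.0 CPM there, higher than at 0 in each library, and for both genes the ranges met.

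Adra1a stood at 66.1 ± 3.85 CPM with at least 3 Agt UMIs and 65.0 ± 9.48 CPM with 0, a log2 difference of 0.06 with an interval of -0.08 to 0.20 (edgeR adjusted p = 0.605). Adrb1 stood at 22.4 ± 1.70 and 21.6 ± 0.45 CPM, a log2 difference of 0.08 with an interval of -0.11 to 0.26 (edgeR adjusted p = 0.613). Both were higher in 2 of 3 libraries. The intervals leave room for a change of up to 1.15-fold in Adra1a and 1.20-fold in Adrb1. At 4000 UMIs per cell, Adra1a was found in 19.5% ± 1.02 and 18.3% ± 2.02 of cells and Adrb1 in 8.54% ± 1.09 and 7.48% ± 1.26, in the same order. Of the 10 Adra2c UMIs of astrocytes, 7 lay in 5 cells with 0 Agt UMIs.

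Whether Adra1a and Adrb1 fall in the same astrocytes was asked by counting cells with both and dividing by the number expected if the 2 were independent within 10 depth bins of each library. Both were found in 706 astrocytes (8.06%), Adra1a alone in 2411, Adrb1 alone in 941 and neither in 4699. The expected number was 673, and the ratio of found to expected was 0.960, 1.09 and 1.11 in libraries 1, 2 and 3 (1.05 ± 0.08, SD, n = 3). It lay on either side of 1, so neither an excess nor a deficit exceeded the spread between libraries. Without depth bins the ratio was 1.21 ± 0.11, and cells with both had a median of 13012 UMIs where cells with neither had 8712. Among 9212 genes found in 5% to 60% of astrocytes, the same ratio with Adra1a had a median of 0.999 and 7.69% of genes reached the value of Adrb1. With Adrb1 the median was 1.01 and 16.2% of genes reached the value of Adra1a.

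The ratio was similar in the Agt subtypes, with means of 1.11 ± 0.08 in astrocytes with 0 Agt UMIs, 1.04 ± 0.05 with 1 or 2 and 1.02 ± 0.13 with at least 3. It was above 1 in each library at 0 Agt UMIs (1.01, 1.15 and 1.16) and at 1 or 2 (1.01, 1.10 and 1.02). With at least 3 it lay on both sides of 1 (0.876, 1.05 and 1.14). Of the other pairs, Adra1b with Adrb1 was above 1 in each library (1.11, 1.20 and 1.17), and so were Adra1a with Adra2a (1.10, 1.16 and 1.03) and Adra2a with Adrb1 (1.04, 1.06 and 1.21). With cells thinned to 8000 UMIs, the first 2 of these pairs stayed above 1 in each library, and Adra2a with Adrb1 did not (0.954, 1.16 and 0.884). Adra1a with Adra1b gave 0.976 ± 0.068. Adra1b with Adra2a, the pair that differed in opposite directions with Agt, was found together in 14 astrocytes where 19.7 were expected, with ratios of 0.944, 0.636 and 0.569. Within the Agt subtypes, this pair was found in 0 cells where 4.26 were expected at 0 Agt UMIs. The counts were 5 where 6.79 were expected at 1 or 2, and 9 where 7.69 were expected with at least 3. These counts are too small to order the pairs, and no test was made over cells. In pericytes, Adra1a and Adra2a were found together in 7 cells where 6.86 were expected, and Adra1a and Adra1b in 1 cell where 3.93 were expected.

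**Figure D5:**
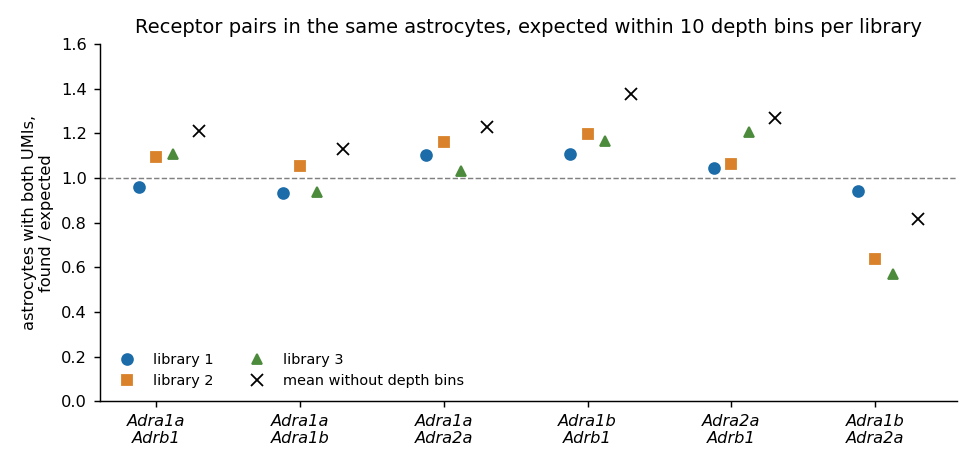
Astrocytes with UMIs of both receptors of a pair, as found over expected within 10 depth bins of each library (linear axis from 0, dashed line at 1), 1 symbol for each library and a cross for the mean without depth bins. The symbols of Adra1a with Adrb1 lay at 0.960, 1.09 and 1.11, on both sides of the line, and its cross at 1.21.

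The transducers of these receptors were taken from a list of 12 G protein α subunits and a list of 7 receptor kinases and arrestins. Between astrocytes and pericytes, 10 of the 12 α subunits were tested, 5 were higher in astrocytes and 5 lower, where 79.5% of all genes passed (42.8% higher and 36.7% lower), with a median log2 difference of -0.26 where all genes had 0.105. Of the kinases and arrestins, which switch active receptors off, 3 were higher and 4 lower, with a median of -0.41. With scaling to total UMIs 3 α subunits were higher and 5 lower, and no sign turned in either list. Against the 152 pericytes with 0 further astrocyte markers, 4 α subunits were higher and 4 lower, and of the kinases and arrestins 3 were higher and 1 lower, with the sign turned for Grk2, Grk6 and Arrb2. Against the pericytes with 0 fibroblast UMIs 2 of the kinases and arrestins were lower. Gnao1, the Go subunit, was higher in astrocytes (747 against 62.6 CPM, log2 3.79, edgeR adjusted p = 2.7e-26). Gnai1, a Gi subunit, and Gna11, of the Gq family, were lower in astrocytes (4.52 against 20.9 CPM, log2 -1.99, and 34.2 against 129 CPM, log2 -1.70). Gnaq, also of the Gq family, was higher in astrocytes (303 against 132 CPM, log2 1.41). Among the receptor kinases, Grk5 was lower in astrocytes (9.88 against 210 CPM, log2 -4.21) and Grk3 higher (324 against 151 CPM, log2 1.31), and Arrb1, β-arrestin 1, was higher (120 against 19.5 CPM, log2 2.84).

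Between astrocytes with at least 3 and with 0 Agt UMIs, 3 α subunits were higher, 2 lower and 5 did not pass, where 26.5% of all genes passed. Gnao1 differed by -0.53 on the log2 scale, Gnai2 by 0.24 and Gnas, the Gs subunit, by 0.21. Without library 2 or without library 3, 0 were higher and 1 lower. Of the 7 kinases and arrestins 1 passed, a share under that of all genes, and this was Grk5 (7.89 against 13.4 CPM, log2 -0.73, edgeR adjusted p = 7.77e-05). Against Acta2 cells, 3 were higher in astrocytes and 1 lower in each list, where 18% of all genes passed, among them Gnao1 (log2 3.89), Gna13 (2.68), Gnaq (2.47), Arrb1 (3.35), Grk4 (1.97) and, lower, Grk5 (-3.72). None of these was called without library 2. Between Acta2 cells and pericytes 0 of the 17 tested genes passed by edgeR or DESeq2, and 2 had an unadjusted edgeR p under 0.05.

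The genes whose levels ran most like each of the 2 abundant receptors were ranked by Pearson's r of log2(CPM + 1) over 12 sums, those of astrocytes with 0 and with at least 3 Agt UMIs, pericytes and Acta2 cells in 3 libraries, among 9935 genes of at least 10 CPM. The sums share libraries, and the correlations are a description. For Adra1a the first 5 were Slc25a20 (r = 0.998), Rap2b, Rhobtb2, Rnf144a and Rbks. Each had 1 or 2 UMIs in the Acta2 cells of library 1 and 0 in those of libraries 2 and 3, as Adra1a had, and without the Acta2 sums they ranked 380, 1147, 1033, 1139 and 816. For Adrb1 the first 5 were Wnt7a, which encodes a Wnt ligand (r = 0.999), Gm7967, Gm35552, Pou3f4, which encodes a transcription factor, and Gm44257. All 5 had 0 UMIs in Acta2 cells and at most 0.353 CPM in pericytes, and without the Acta2 sums they ranked 24, 29, 40, 99 and 133.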

How the data were processed

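The authors sequenced 3 pooled 10x libraries and deposited raw UMI counts per gene and barcode, aligned to mm10. The labels name Cell Ranger 3.0 and the matrix headers 7.0.0. No source used here says whether intronic reads were counted. The number of mice per library came from the authors' deposited list of mice and their hashtags. Hashtag counts were not used, and 0 columns of other samples were present. All barcodes were kept, with no doublet caller. Classes were set by marker UMIs, and UMIs were summed per class and library. Sums were tested with edgeR 4.0.16 (quasi-likelihood, TMM, low-count filter, Benjamini-Hochberg at 0.05) in R 4.3.3. The classes compared come from the same 3 libraries, so library was a block by design. P-values rest on how the class difference varied across these 3 pooled libraries, with a dispersion estimated partly from all genes. DESeq2 1.42.0, other scalings, thinning, barcode filters and leaving out a library were alternatives. Scaling to total UMIs, the stricter sets of pericytes, the ratio of Adra2b without library 3 and the rankings without Acta2 sums were chosen after seeing the data. Scripts were tested on simulated data. Levels are UMIs per 1000000 UMIs of a class (CPM), and thinning was to 4000 UMIs with Python 3.11.15 and numpy 2.4.6. Intervals of fitted fold changes are normal (95%). The SE used there and printed with log2 differences from edgeR was derived, as the absolute log2 difference over the square root of the F statistic. It is not an SE reported by edgeR, and with few UMIs in a class it can understate counting error. Binomial and Poisson intervals are exact (95%) and cover counting error only. Limits given for a count of 0 are set at 3 UMIs or 3 cells instead.

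Named were the 8 receptors, the 3 genes with the largest absolute fold change among those called in each pathway list, and the 5 genes most like Adra1a and Adrb1. Between astrocytes and pericytes, Gnaq was named as well, as another member of the Gq family. In the Agt comparison the kinase list had 1 called gene. The members and lists were chosen with earlier results of these data known. Coordinates are from GENCODE vM21 on GRCm38, matched by Ensembl ID for 8 of 8 genes.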

Additional observations from a re-analysis of the deposited data

Results flagged for a closer look

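Receptor UMIs also lay in the 2527 barcodes that fell in no class, which the comparisons above did not use and of which no control sample exists. These barcodes had a median of 761 UMIs, and 61.1% of them were over 6% mitochondrial UMIs. They held 248 Adra1a UMIs (58.4 CPM), 63 Adrb1 UMIs (14.8 CPM), 26 Adra1b UMIs and 14 Adra2a UMIs, each above the limit of 3 UMIs that a count of 0 allows. Not all were shallow. In the series, 101 barcodes had at least 20 Slc1a2 and Slc1a3 UMIs and at least 10 Vtn and Rgs5 UMIs. Their median was 15014 UMIs, and they held 103 Adra1a and 29 Adrb1 UMIs. The Acta2 cell with Adra1a was 1 of them, and the others fell in no class. Whether they were doublets was not tested.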

How the results depend on the processing

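Of 180 receptor fold changes under the alternatives, 158 kept their direction and side of the threshold, 19 kept the direction but lost the call and 3 turned direction. The 3 were Adra2a between astrocytes and the 152 pericytes with 0 further astrocyte markers (0.37 on the log2 scale) and Adra1a between the Agt subtypes without library 1 (-0.0097, up to 0.13 without another library) and at 4000 UMIs (-0.022), the main value being near 0 there. The numbers of genes called were 12202 for astrocytes against pericytes (5371 with those 152 pericytes, 11253 to 11697 without 1 library), 718 for Acta2 cells against pericytes (359 with DESeq2, 420 thinned, 283 to 694 without 1 library), 2561 for astrocytes against Acta2 cells (250 to 1813) and 3747 for the Agt subtypes (1739 with DESeq2, 2400 thinned, 2409 to 4007). Without the replicate block, which stands for the pairing by library, they were 12279, 1230, 3321 and 3303, and no receptor's call changed. With scaling to total UMIs, the split of higher and lower calls went from 6562 and 5640 to 5552 and 6710 for astrocytes against pericytes, from 323 and 395 to 409 and 326 for Acta2 cells against pericytes, from 1489 and 1072 to 1114 and 1270 for astrocytes against Acta2 cells, and from 1793 and 1954 to 1537 and 2232 for the Agt subtypes.

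The ratios of shares of cells moved with depth. Astrocytes over pericytes went from 2.73 to 6.69 at 8000 UMIs and 4.68 unthinned for Adra1a, from 1.55 to 0.792 and 2.49 for Adra1b, and from 0.499 to 0.842 unthinned for Adra2a. Between the Agt subtypes they went from 1.07 to 0.987 at 2000 UMIs and 1.24 unthinned for Adra1a, from 0.716 to 0.562 at 2000 for Adra1b, and from 2.94 to 2.38 at 2000, 1.63 at 8000, 2.33 unthinned and 3.26 with the barcode filter for Adra2a. Adrb1 was in 0 of the 128 pericytes kept at 8000 UMIs. Adra1a with Adrb1 in the same astrocytes gave 1.21 without depth bins. The cause of these moves was not tested. The depth of 22 Acta2 cells limits every comparison with them, and 3 pooled libraries limit the rest.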
